A study of Mus musculus with 4 samples.

Results

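The Rab genes, which encode the small GTPases of membrane traffic, were followed over the cell classes of the mouse lower incisor. Every gene symbol made of Rab, a number and at most a letter and a further digit was taken, which gave 59 of the 32285 genes counted. All 59 are protein coding in the GENCODE annotation of GRCm38, and 4 of them (Rab9, Rab9b, Rab33a and Rab39b) are X-linked. From general knowledge 18 were listed as housekeeping Rabs and 30 as lineage-restricted Rabs, and the other 11 stood in neither list.

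Proximal tissue of the lower incisor was taken at postnatal day 15, and single cells were sequenced with 10x Genomics 3' chemistry, which counts unique molecular identifiers (UMIs) near the 3' end of a transcript. WT mice gave 2 libraries, and mice with a germline knockout of Din (Din-KO) gave another 2. The Din-KO allele comes from the KOMP gene-trap allele 4930453N24Rik tm1a(KOMP)Mbp, from which a germline-expressed Cre took out the selection cassette and an internal exon, so every cell carries it. The sources used here do not say how many mice went into each library. The p-values for genotype within a class therefore measure only the spread between these libraries. Tests with library as a term measure the spread left once library differences are taken out, pooled over the classes of these libraries.

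Rab proteins cycle between a GTP-bound form on a membrane and a GDP-bound form in the cytosol. Exchange factors load them with GTP, GTPase-activating proteins switch them off, and effectors bound to the active form tether, move and fuse vesicles. Some Rabs serve routes that every cell uses, such as transport from the endoplasmic reticulum to the Golgi or endocytosis. Others serve secretory granules, phagosomes, pigment organelles or the apical membrane of epithelia.

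The 4 Rabs that were higher in each of the 3 myeloid classes (macrophage-like, monocyte or dendritic-like and neutrophil-like) are shown by the sequence at their gene start, since they share these calls. They were chosen after their values were seen. The windows hold 250 bases before the start and 50 after it, from RefSeq on GRCm38.p6, all on the minus strand, 5′ to 3′. They lie at chr8:11478591-11478890 for Rab20, chr17:65772703-65773002 for Rab31, chr10:10558158-10558457 for Rab32 and chr9:66919656-66919955 for Rab8b. Capitals mark GAGGAA, the core letters bound by the myeloid factor PU.1, or its reverse complement TTCCTC.
Rab20: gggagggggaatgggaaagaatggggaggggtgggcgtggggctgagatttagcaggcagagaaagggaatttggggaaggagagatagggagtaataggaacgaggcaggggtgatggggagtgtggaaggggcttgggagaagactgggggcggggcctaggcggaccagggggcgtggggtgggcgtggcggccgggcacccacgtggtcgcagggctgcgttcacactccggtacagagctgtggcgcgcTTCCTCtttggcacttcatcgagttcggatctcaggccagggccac
Rab31: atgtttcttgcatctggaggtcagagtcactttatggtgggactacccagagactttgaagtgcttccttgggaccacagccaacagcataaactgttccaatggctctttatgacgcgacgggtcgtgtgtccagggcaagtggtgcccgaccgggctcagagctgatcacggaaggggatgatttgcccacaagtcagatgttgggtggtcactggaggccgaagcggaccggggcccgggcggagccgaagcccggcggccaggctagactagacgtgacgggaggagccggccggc
Rab32: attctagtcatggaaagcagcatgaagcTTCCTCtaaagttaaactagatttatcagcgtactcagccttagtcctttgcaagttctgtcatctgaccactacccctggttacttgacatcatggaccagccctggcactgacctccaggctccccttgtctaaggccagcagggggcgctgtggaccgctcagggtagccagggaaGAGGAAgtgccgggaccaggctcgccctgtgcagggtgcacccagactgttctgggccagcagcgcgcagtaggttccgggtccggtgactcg
Rab8b: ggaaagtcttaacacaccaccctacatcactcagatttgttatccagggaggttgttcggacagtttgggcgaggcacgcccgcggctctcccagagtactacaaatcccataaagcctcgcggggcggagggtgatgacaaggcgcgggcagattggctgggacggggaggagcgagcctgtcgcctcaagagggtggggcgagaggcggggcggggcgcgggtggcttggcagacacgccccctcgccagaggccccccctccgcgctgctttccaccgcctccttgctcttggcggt

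The letters occurred 1 time in the Rab20 window and on both strands, 1 time each, in the Rab32 window. The Rab31 and Rab8b windows did not hold them. Of 32851 windows of this length over all genes, 28.3% held the motif on either strand, and of 60 windows at 48 of the Rab genes 11 did. The other 11 Rab genes had no window. GC content was 64.3% for Rab20, 60.3% for Rab31, 57.3% for Rab32 and 65.3% for Rab8b.

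Depth over all barcodes ran from 32198098 to 54348039 UMIs per library, and 11310 of 20502 barcodes passed the study's filters, with 1272 to 4575 cells per library and medians of 8016 to 11587.5 UMIs per cell. Any 2 libraries shared at most 4 cell barcodes. Clusters were named from marker genes that hold no Rab, and Rab genes were also left out of the clustering. This gave 13 classes with at least 20 cells in at least 2 libraries, and a class is called "-like" because its name rests on markers alone. In the mesenchyme-like cells Din was at 36.4 and 28.4 CPM for WT and at 22.6 and 28.2 CPM for Din-KO. CPM are the UMIs of the gene with the UMIs of the class scaled to a common total. Where the counted 3' tags of Din lie relative to the deleted exon was not examined, so these values check no label. Y-linked UMIs were found in 0.113% and 0.117% of WT and in 45.5% and 47.2% of Din-KO mesenchyme-like cells, so sex and genotype cannot be told apart.

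Some classes held markers of other cells. In macrophage-like cluster 13 (284 cells) 7 of 8 mesenchyme markers were detected. The T or NK-like class was a single cluster of 120 cells with Prss34 and Mcpt8 among its leading genes, and its mast cell and basophil markers summed to 1534 CPM against 2.49 to 112 CPM in the other named classes. Neutrophil markers summed to 11220 CPM in the monocyte or dendritic-like class and to 350000 CPM in the neutrophil-like class. The monocyte and dendritic markers themselves summed to 5355 CPM in the monocyte or dendritic-like class, with 2 of them at 0 UMIs. Elane, which is on the neutrophil list, Ctsg and Prtn3 were among the leading genes of this class, beside Ly6c2 and Ccr2. Ameloblast markers summed to 348300 CPM in the ameloblast-like class, to 5870 CPM in the odontoblast-like class and to 5611 CPM in the epithelium-like class. In the other compared classes they summed to at most 674 CPM. The ameloblast list includes Dspp, which is also an odontoblast marker and a leading gene of the odontoblast-like cluster. The odontoblast-like sum is therefore no measure of ameloblast RNA alone. Osteoblast markers summed to 42210 CPM in the odontoblast-like class, against 10.8 to 1762 CPM in the other named classes. Bglap, Bglap2, Bglap3 and Ifitm5 were among the leading genes of the odontoblast-like cluster, beside Dspp and Dmp1. The part of these cells and of free RNA in the Rab values was not tested.

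Levels are given as CPM of the UMIs summed over the cells of a class, which are not divided by gene length, so values of different genes are not set against each other. Values given by library are ordered as WT replicates 1 and 2, then Din-KO replicates 1 and 2, and only libraries with at least 20 cells of the class enter. Means over libraries include both genotypes, except in the glia-like and T or NK-like classes, where only the Din-KO libraries had at least 20 cells. Values and calls of these classes hold no WT library, so class and genotype cannot be told apart there. Where a few genes hold much of the UMIs of a class, the CPM of its other genes is lower. Ameloblast markers hold 348300 CPM in ameloblast-like cells, and neutrophil markers hold 350000 CPM in neutrophil-like cells. CPM and the tau values and sums made from them were not corrected for this, while the tests use TMM size factors. A gene was called higher in a class when its level differed from the mean of the other classes at an adjusted p under 0.05 (edgeR quasi-likelihood test with library as a term, Benjamini-Hochberg over all 13972 genes tested) with a log2 fold change above 1.

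Housekeeping Rabs were broad and lineage-restricted Rabs were narrow across the 13 classes, as a tau value for each gene describes. Tau is 0 for a gene at the same level in every class and 1 for a gene in a single class. Its median was 0.45 over the 18 housekeeping Rabs (range 0.19 to 0.68), 0.53 over the 11 Rabs in neither list and 0.84 over the 24 lineage-restricted Rabs with at least 5 CPM in a class (range 0.61 to 0.96). Over all 13910 genes measured this way it was 0.64, with quartiles of 0.46 and 0.84. From library to library the SD of the median was 0.021 for housekeeping, 0.025 for neither and 0.019 for lineage-restricted Rabs. The lists were drawn up from what is known of these genes, with earlier results of these data also known. The difference is therefore a description and was given no test. Lineage-restricted Rabs also had fewer UMIs, with a median total of 809 against 11597 for housekeeping and 3115 for the Rabs in neither list.

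**Figure D1:**
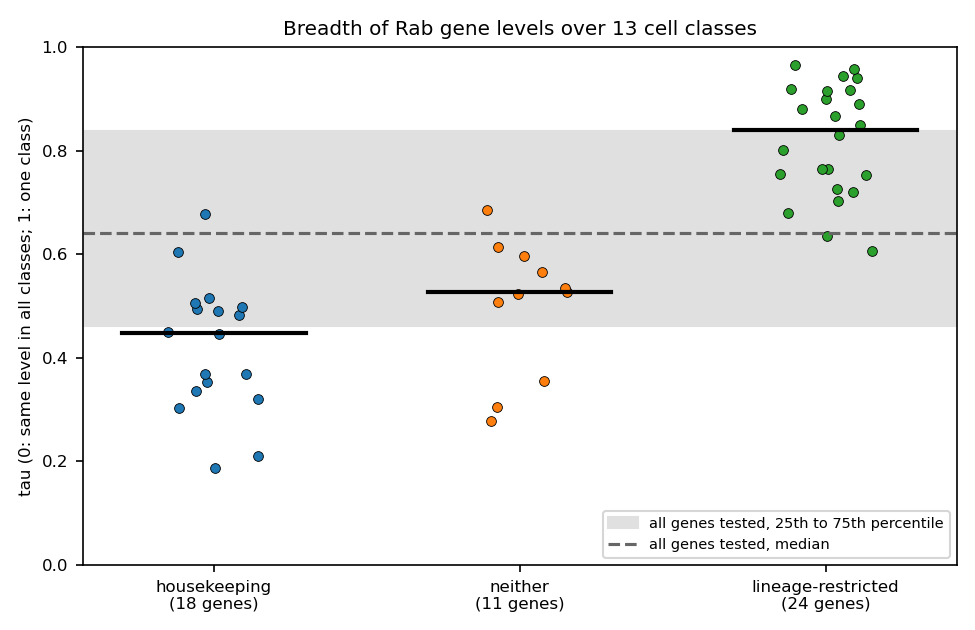
Tau (vertical axis, 0 to 1) of each Rab gene with at least 5 CPM in a class, by list; a point is a gene, the grey band spans the quartiles of all genes tested and the dashed line is their median. Housekeeping Rabs lie between 0.19 and 0.68, and lineage-restricted Rabs lie between 0.61 and 0.96.

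Rab22a, an endosomal Rab, had the lowest tau of the housekeeping list (0.19), followed by Rab5b (0.21), Rab5a (0.30) and Rab1b (0.32). Rab11a (0.68), Rab5c (0.61), Rab6a (0.52) and Rab35 (0.51) were the least even. All 18 had UMIs in every class, and their highest class exceeded their lowest by 1.70-fold to 4.51-fold. In the lineage-restricted list Rab44 (0.96), Rab39 (0.96), Rab38 (0.94) and Rab3b (0.94) were the narrowest, and Rab31 (0.61), Rab34 (0.64), Rab23 (0.68) and Rab39b (0.70) the broadest. No UMI was found in at least 1 class for 21 of these 30 genes. Among the Rabs in neither list tau ran from 0.28 for Rab9, 0.30 for Rab28, 0.36 for Rab4b and 0.51 for Rab2b to 0.57 for Rab12, 0.60 for Rab43, 0.61 for Rab8b and 0.68 for Rab29.

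**Figure D2:**
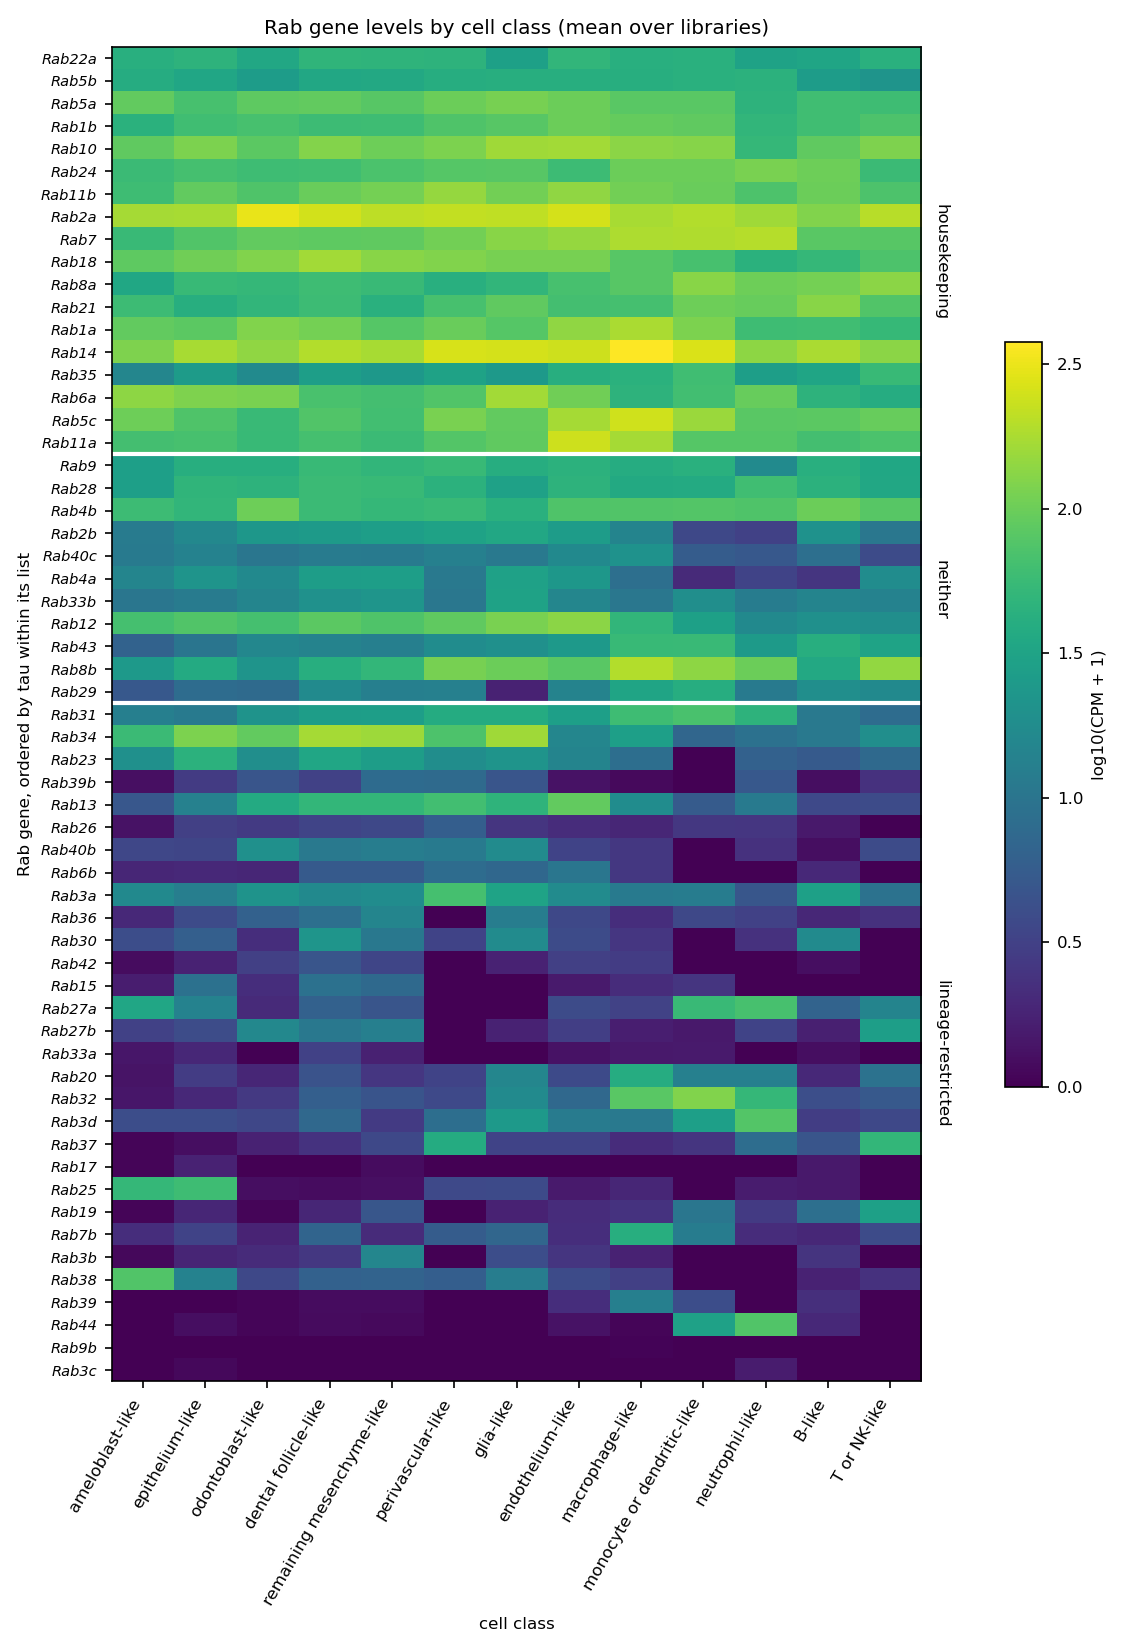
Mean level of each of the 59 Rab genes (rows, ordered by tau within housekeeping, neither and lineage-restricted lists) in 13 cell classes (columns), as log10(CPM + 1) by color. The 18 housekeeping rows have no empty cell, while 21 of the 30 lineage-restricted rows hold at least 1 class with no UMI.

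Of 53 Rab genes with enough UMIs to be tested, 41 were higher in at least 1 class, against 71.5% of all genes tested. These were 9 of 18 housekeeping, 24 of 24 lineage-restricted and 8 of 11 other Rabs. A narrow gene that passed the filter on low counts had to be high somewhere, so the count of the lineage-restricted list supports nothing by itself. The 6 members that were not tested were Rab26 (284 UMIs in all), Rab42 (286), Rab33a (85), Rab17 (25), Rab3c (4) and Rab9b (3). Their highest class means were 4.96, 3.75, 2.15, 0.76, 0.57 and 0.048 CPM.

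The housekeeping Rabs of endoplasmic reticulum and Golgi traffic had UMIs in all classes. In this role 7 of 11 tested Rabs were higher somewhere (71.5% of all genes tested were). Rab2a, which acts between Golgi and endoplasmic reticulum, was at 350.7, 277.8, 325.3 and 279.3 CPM in odontoblast-like cells, the secretory cells of dentin, and this was its highest class mean (308.3 ± 35.9 CPM, SD, n = 4). It was not called higher in a class. Rab1a, which carries cargo to the Golgi, was at 127.3, 222.5, 148.4 and 214.3 CPM in macrophage-like cells (log2 fold change 1.01 ± 0.10, SE, adjusted p = 1.71e-10), with the replicate 2 libraries of both genotypes above the replicate 1 libraries. This fold lay near the limit of 1, and the call was lost with RLE size factors, in DESeq2, with at least 50 cells per library, and without WT replicate 2 or Din-KO replicate 2. In T or NK-like cells Rab1a was called lower (-1.06 ± 0.24, adjusted p = 0.00135).

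Rab6a, which serves transport at the Golgi and secretion, was at 147.2, 130.2, 152.0 and 118.4 CPM in ameloblast-like cells, the cells that secrete enamel matrix. Its log2 fold change there was 1.47 ± 0.11 (SE, adjusted p = 1.42e-14), and it was the only housekeeping Rab among the 6 higher in this class. The highest class mean of Rab6a was in glia-like cells (165.5 CPM, from Din-KO libraries alone), where it was not called, and ameloblast-like cells came next (137 CPM). In neutrophil-like cells Rab6a was called higher in some alternatives, such as DESeq2, but not in the main fit. It was called lower in T or NK-like cells (-1.56 ± 0.29, adjusted p = 8.85e-05) and B-like cells (-1.01 ± 0.15, adjusted p = 7.39e-07). Its relative Rab6b (ENSMUSG00000032549) was at under 10 CPM on average in each class and highest in endothelium-like cells, at 11.2, 17.2, 5.17 and 3.73 CPM (log2 fold change 3.15 ± 0.56, adjusted p = 2.62e-05). The WT libraries were both above the Din-KO libraries. Rab6b was also higher in dental follicle-like cells (2.30 ± 0.65, adjusted p = 0.00401).

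Rab30, a Golgi Rab, was at 26.7, 22.7, 18.2 and 17.4 CPM in dental follicle-like cells (log2 fold change 3.47 ± 0.33, adjusted p = 1.03e-10). In B-like cells it ran from 5.85 CPM in WT replicate 1 to 33.8 CPM in Din-KO replicate 2 (2.79 ± 0.49, adjusted p = 1.42e-05). Rab36, another Golgi Rab, was at 13.8, 13.1, 15.9 and 12.3 CPM in the remaining mesenchyme-like cells, those not placed in the follicle or odontoblast classes (2.89 ± 0.30, adjusted p = 3.93e-10). Its call in odontoblast-like cells was lost with at least 50 cells per library and without WT replicate 1 or Din-KO replicate 1. The 4 libraries thus lay within a narrow range for Rab36 and a wide one for Rab30 in B-like cells. Rab43, a Golgi Rab with roles in antigen handling by dendritic cells, was higher in macrophage-like (54.1 ± 18.0 CPM), monocyte or dendritic-like (54.5 ± 20.6 CPM) and B-like cells (40.7 ± 11.4 CPM, SD, n = 4 each). The B-like call of Rab43 was lost without WT replicate 1. Rab2b was called higher in glia-like cells alone, from the 2 Din-KO libraries. Rab1b, Rab18 and Rab33b were not called higher in any class. Rab18, a Rab of lipid droplets and the endoplasmic reticulum, was at 166.2 CPM in its highest class, dental follicle-like cells, and shares exon sequence on its own strand with AC131796.2, so its UMIs are uncertain. It was called lower in B-like cells (-1.03 ± 0.14, adjusted p = 1.40e-07).

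Among 16 tested Rabs of early and recycling endosomes, 9 were higher in a class (71.5% of all genes tested were). Rab25 (ENSMUSG00000008601), an epithelial relative of Rab11 on apical recycling endosomes, marked the 2 epithelial classes. In ameloblast-like cells it was at 55.2, 53.1, 46.4 and 48.1 CPM (50.7 ± 4.13 CPM, SD, n = 4), and in epithelium-like cells it was at 81.4, 56.9, 57.2 and 37.6 CPM. The log2 fold changes were 7.06 ± 0.29 (adjusted p = 1.84e-20) and 6.51 ± 0.30 (adjusted p = 1.74e-18). The libraries of these 2 classes overlapped each other and lay far above every other class.

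Rab15, a recycling Rab, was at 4.82, 4.22, 9.96 and 13.3 CPM in epithelium-like cells (log2 fold change 4.38 ± 0.51, adjusted p = 2.95e-08) and at 7.24, 10.3, 3.89 and 11.2 CPM in dental follicle-like cells (4.38 ± 0.47, adjusted p = 4.83e-09). In the remaining mesenchyme-like cells its log2 fold change was 4.01 ± 0.45 (adjusted p = 1.03e-08). Rab15 had no UMI in 5 classes. Where classes hold 0 UMIs of a gene, the fitted folds depend on the prior count and are no bound.

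Rab20 and Rab31, which act on phagosomes and endosomes, were higher in all 3 myeloid classes, along with Rab32 and Rab8b. These calls were not confined to myeloid classes. Rab8b was also called higher in T or NK-like cells (142 CPM) and Rab20 in glia-like cells (14.1 CPM), both from Din-KO libraries alone. Rab20 was at 20.2, 47.0, 34.7 and 50.7 CPM in macrophage-like cells (log2 fold change 3.66 ± 0.23, adjusted p = 1.02e-16). Its mean in monocyte or dendritic-like cells was 12.2 ± 3.08 CPM (1.74 ± 0.48, adjusted p = 0.00408). The neutrophil-like calls of Rab20 and Rab8b were lost without WT replicate 2. Rab31 was at 66.6, 54.3, 74.1 and 74.9 CPM in monocyte or dendritic-like cells and at 44.0, 86.3, 45.9 and 56.9 CPM in macrophage-like cells, and these libraries overlapped. The Rab20 and Rab32 windows printed above hold the PU.1 letters and the Rab31 and Rab8b windows do not.

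Macrophage-like cells also led for several broad endosomal Rabs. Rab14, between the trans-Golgi and endosomes, was at 407.4, 374.0, 327.3 and 399.6 CPM (log2 fold change 1.04 ± 0.08, adjusted p = 9.27e-14), a call near the limit of 1 that was lost in DESeq2 and without Din-KO replicate 2. Rab5c, an early endosome Rab, was at 223.5, 239.8, 234.2 and 274.3 CPM (1.42 ± 0.10, adjusted p = 9.73e-16). Rab5a and Rab5b were not called higher in any class, so the 3 Rab5 genes were called differently, a difference that was not itself tested. Rab11a, of recycling endosomes, was highest in endothelium-like cells at 266.3, 192.4, 269.8 and 229.6 CPM (1.52 ± 0.13, adjusted p = 2.32e-12), and it was also higher in macrophage-like cells (1.16 ± 0.14, adjusted p = 4.81e-09). Rab21, which carries integrins, was called higher in neutrophil-like cells (1.19 ± 0.14, adjusted p = 1.18e-08). Its highest class mean was instead in B-like cells (130.9 CPM), which were highest in each of the 4 libraries. There Rab21 was not called in the main fit, but it was in some alternatives, such as a resolution of 0.5. Rab4a was higher in glia-like, dental follicle-like and remaining mesenchyme-like cells, and Rab4b, Rab10, Rab11b, Rab22a and Rab35 were not called higher in any class.

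Of 7 tested Rabs of late endosomes, lysosomes and related organelles, 6 were higher in a class (71.5% of all genes tested were). Rab38 (ENSMUSG00000030559), known from pigment granules and other lysosome-related organelles, was at 45.3, 94.3, 86.6 and 70.3 CPM in ameloblast-like cells (74.1 ± 21.7 CPM, SD, n = 4, log2 fold change 6.02 ± 0.28, adjusted p = 1.84e-18). In epithelium-like cells it was at 5.78, 10.5, 10.8 and 24.9 CPM (2.53 ± 0.49, adjusted p = 8.50e-05), so no epithelium-like library reached the lowest ameloblast-like one. Rab38 was also called higher in glia-like cells, at 0 and 22.7 CPM in the 2 Din-KO libraries (2.75 ± 0.83, adjusted p = 0.0153), and in the remaining mesenchyme-like cells (1.34 ± 0.54, adjusted p = 0.0378). The latter call was lost with RLE size factors, in DESeq2, with at least 50 cells per library, and without either WT library or Din-KO replicate 1. Melanocyte markers summed to 1.22 to 25.4 CPM in the compared classes. Its close relative Rab32 showed another distribution, at 84.7, 170.5, 124.3 and 113.4 CPM in monocyte or dendritic-like cells (4.62 ± 0.26, adjusted p = 1.50e-17) and at 75.03, 90.2, 74.99 and 85.9 CPM in macrophage-like cells (4.11 ± 0.20, adjusted p = 1.06e-19). Rab32 was called lower in ameloblast-like cells.

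Rab7b (ENSMUSG00000052688), which returns cargo from endosomes to the Golgi, was at 33.6, 48.0, 27.4 and 52.8 CPM in macrophage-like cells (log2 fold change 4.11 ± 0.28, adjusted p = 1.42e-15). Rab7, the general Rab of late endosomes, was instead higher in neutrophil-like cells (1.43 ± 0.12, adjusted p = 3.98e-12), where the 3 libraries were spread from 97.5 CPM in WT replicate 1 to 258.3 CPM in Din-KO replicate 2. In macrophage-like cells Rab7 was at 165.5, 210.0, 159.6 and 196.7 CPM. Rab24, linked to autophagy, was higher in neutrophil-like cells (1.21 ± 0.13, adjusted p = 1.55e-09). Rab29, of lysosomes and the Golgi, was higher in macrophage-like and monocyte or dendritic-like cells, and Rab9, which serves return of cargo to the Golgi, was called higher nowhere.

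All 7 tested Rabs of regulated secretion were higher in a class, where 71.5% of all genes tested were. This role had the highest median tau (0.89, against 0.50 for early and recycling endosomes). Its tested members are all on the lineage-restricted list, so neither value supports anything by itself. Rab44 (ENSMUSG00000064147), a large Rab of immune cells, was at 65.0, 75.7 and 80.4 CPM in the 3 neutrophil-like libraries (WT replicates 1 and 2 and Din-KO replicate 2; log2 fold change 8.64 ± 0.51, adjusted p = 1.87e-15). In monocyte or dendritic-like cells it was at 54.5, 38.8, 6.54 and 16.2 CPM, from 9, 10, 3 and 8 UMIs (6.48 ± 0.65, adjusted p = 7.93e-10). Neutrophil markers were 3.21% of their neutrophil-like level there, and the part of neutrophils in this value was not tested.

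Rab27a (ENSMUSG00000032202), which docks lysosome-related and secretory granules, was called higher in 5 classes, of which 3 had the larger folds. It was at 41.8, 96.3 and 59.3 CPM in the same 3 neutrophil-like libraries (5.08 ± 0.32, adjusted p = 7.51e-16), at 18.2, 81.4, 58.9 and 58.7 CPM in monocyte or dendritic-like cells (4.09 ± 0.31, adjusted p = 1.80e-13) and at 34.0, 36.3, 43.0 and 16.2 CPM in ameloblast-like cells (3.84 ± 0.25, adjusted p = 1.21e-15). The libraries of these 3 classes overlapped. The T or NK-like call of Rab27a was lost in DESeq2, with no filter on low counts, without the highest-scoring doublets, without macrophage-like cluster 13, and without either WT library. Its epithelium-like call was lost with at least 50 cells per library and without WT replicate 1 or Din-KO replicate 1. Rab27b, its relative, was instead at 12.69, 15.1, 14.5 and 16.8 CPM in odontoblast-like cells (3.14 ± 0.37, adjusted p = 6.44e-09). It was also higher in T or NK-like cells, at 13.2 and 40.4 CPM in the 2 Din-KO libraries (3.61 ± 0.75, adjusted p = 0.000497).

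Rab3 proteins bind secretory vesicles, and the 3 tested Rab3 genes had 3 different leading classes. Rab3d, of exocrine and granulocyte granules, was at 60.4, 103.2 and 63.5 CPM in the neutrophil-like libraries (log2 fold change 4.29 ± 0.25, adjusted p = 5.51e-17). Rab3a, of neurosecretory vesicles, was at 69.6 CPM in WT replicate 1 and 59.3 CPM in Din-KO replicate 1 of the perivascular-like class (1.95 ± 0.36, adjusted p = 8.70e-05). Rab3b was at 29.9, 8.82, 14.2 and 4.46 CPM in the remaining mesenchyme-like cells (5.09 ± 0.46, adjusted p = 7.89e-11), so the replicate 1 libraries of both genotypes were above the replicate 2 libraries. Its call in glia-like cells (4.36 ± 1.44, adjusted p = 0.0297) rested on 1 library, with 0 CPM in the other.

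Rab37, which is found on secretory granules of mast cells among others, was at 36.9 and 63.5 CPM in the 2 Din-KO T or NK-like libraries (log2 fold change 4.68 ± 0.50, adjusted p = 1.85e-09). This is the class that also held mast cell and basophil markers. It was at 42.8 and 32.0 CPM in the perivascular-like libraries, from 8 and 7 UMIs (3.97 ± 0.58, adjusted p = 1.84e-06). In these T or NK-like and perivascular-like classes the compared libraries were few, and the part of mast cells was not tested. Rab37 was also called higher in neutrophil-like cells, a call that was lost without WT replicate 2.

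**Figure D3:**
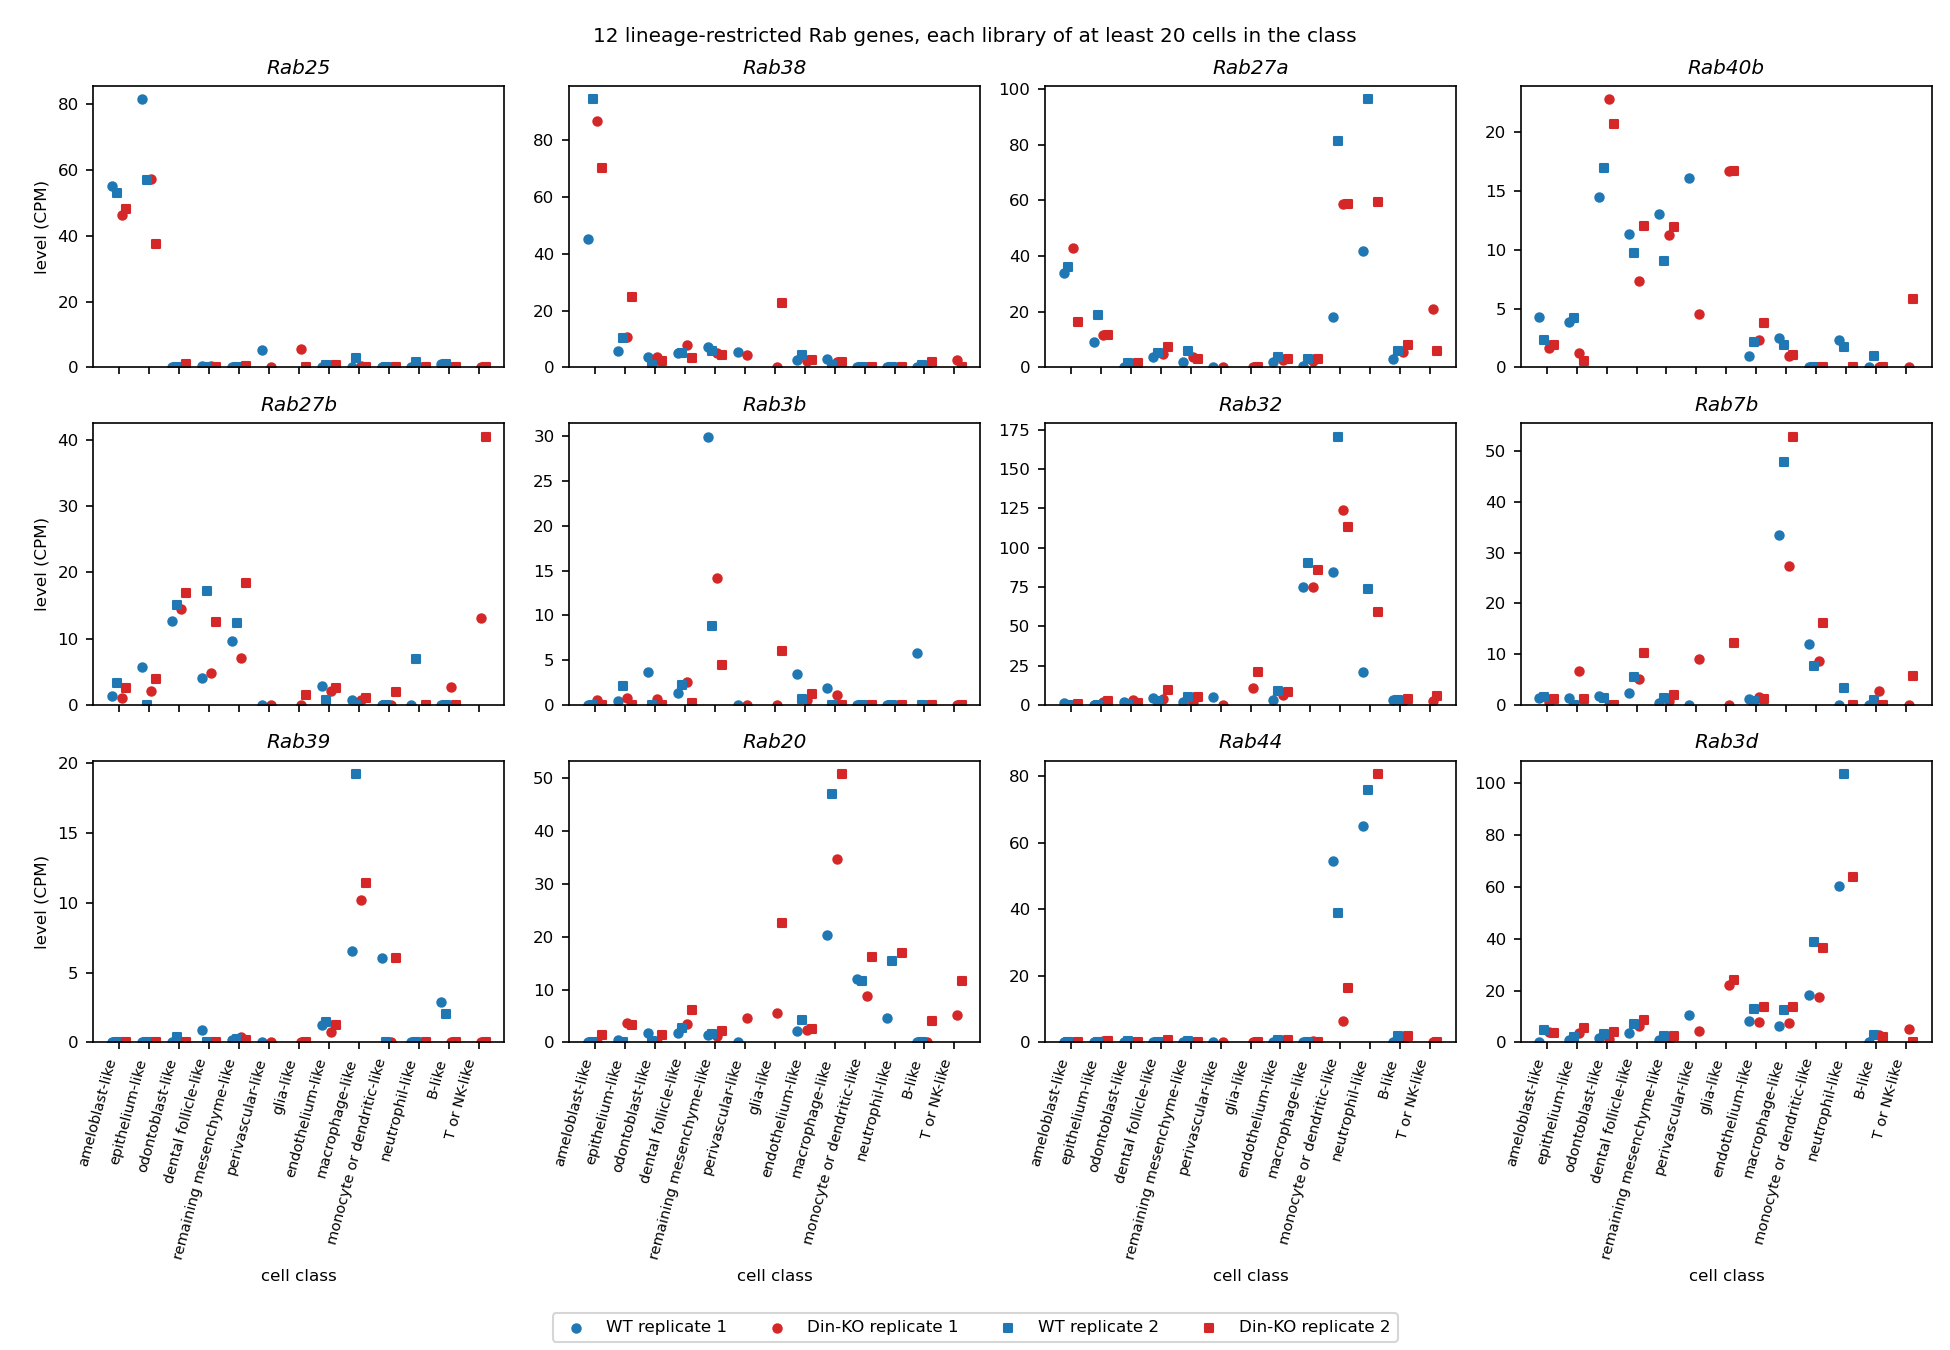
Levels (CPM) of 12 lineage-restricted Rab genes in each library with at least 20 cells of the class; blue is WT, red is Din-KO, circles are replicate 1 and squares are replicate 2. Rab25 stands out in the ameloblast-like and epithelium-like classes, Rab44 in the neutrophil-like and monocyte or dendritic-like classes, and Rab7b in the macrophage-like class, in each library shown.

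Rabs of the cilium, junctions and polarised delivery were higher in a class for 6 of 6 members (71.5% of all genes tested were). Rab34, needed to form the cilium in many cells, was at 168.2, 169.5, 176.8 and 159.2 CPM in dental follicle-like cells (168.4 ± 7.23 CPM, SD, n = 4, log2 fold change 2.21 ± 0.13, adjusted p = 8.96e-17). It was called higher in all 3 mesenchyme classes, in both epithelial classes and in glia-like cells, and lower in B-like, T or NK-like, endothelium-like, monocyte or dendritic-like and neutrophil-like cells. The ameloblast-like call of Rab34 was lost at a resolution of 0.5. Rab23, a negative regulator of Hedgehog signaling at the cilium, was at 58.3, 25.3, 39.4 and 54.2 CPM in epithelium-like cells (2.45 ± 0.27, adjusted p = 3.32e-09). It was higher in the same mesenchyme and epithelial classes, but its odontoblast-like call was lost in DESeq2, with at least 50 cells per library, and without WT replicate 1 or Din-KO replicate 1. It had no UMI in the monocyte or dendritic-like class.

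Rab13, of tight junctions and cell contacts, was at 97.2, 72.5, 94.4 and 92.1 CPM in endothelium-like cells (log2 fold change 2.48 ± 0.18, adjusted p = 1.10e-14), above every library of the mesenchyme classes. It was also higher in perivascular-like cells, at 64.2 and 59.3 CPM (1.78 ± 0.45, adjusted p = 0.00438). Rab8b, which delivers cargo to the cell surface, was at 219.3, 174.5, 192.7 and 169.8 CPM in macrophage-like cells (1.67 ± 0.17, adjusted p = 6.27e-11), and its paralog Rab8a was higher in the monocyte or dendritic-like and neutrophil-like classes. The Rab8a call in monocyte or dendritic-like cells was lost without the highest-scoring doublets and without either Din-KO library. Its highest class mean was in T or NK-like cells (133.8 CPM, against 131.2 CPM in monocyte or dendritic-like cells), where it was not called. Rab28 was higher in neutrophil-like cells alone, a call that was lost without WT replicate 1.

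Of the other Rabs all 6 tested were higher in a class (71.5% of all genes tested were). Rab40b (ENSMUSG00000025170), which recruits a ubiquitin ligase, was at 14.5, 16.9, 22.7 and 20.7 CPM in odontoblast-like cells (18.7 ± 3.69 CPM, SD, n = 4, log2 fold change 3.28 ± 0.28, adjusted p = 3.46e-12), with each Din-KO library above WT. In glia-like cells its log2 fold change was 2.59 ± 0.57 (adjusted p = 0.000754). Rab39b, an X-linked Rab known from neurons, was at 2.72, 4.32, 3.79 and 4.33 CPM in odontoblast-like cells (2.07 ± 0.53, adjusted p = 0.00165), and this call was lost without WT replicate 2 (1.72, adjusted p = 0.0511). Without Din-KO replicate 1 Rab39b did not pass the filter on low counts and was not tested. Its highest class was the remaining mesenchyme-like one, at 8.92, 5.60, 7.62 and 5.80 CPM.

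Rab39, an endolysosomal Rab, was at 6.56, 19.2, 10.2 and 11.4 CPM in macrophage-like cells (log2 fold change 6.11 ± 0.54, adjusted p = 2.22e-10). Its calls in B-like cells (3.02 ± 1.11, adjusted p = 0.0278) and endothelium-like cells (2.43 ± 0.91, adjusted p = 0.0364) came from means of 1.24 and 1.18 CPM and did not hold in DESeq2 (1.26 and 0.75, adjusted p = 0.229 and 0.414). Rab19 was at 44.8 and 11.5 CPM in the T or NK-like libraries (4.48 ± 0.72, adjusted p = 1.05e-05) and at 10.7, 4.03, 8.34 and 7.95 CPM in B-like cells (2.69 ± 0.62, adjusted p = 0.000497). Rab12, which sends receptors to lysosomes, was at 118.4, 134.3, 129.8 and 148.7 CPM in endothelium-like cells (1.29 ± 0.12, adjusted p = 1.75e-11). Rab40c was higher in macrophage-like cells alone (1.20 ± 0.26, adjusted p = 0.000201), a call that was lost with at least 50 cells per library and without WT replicate 2.

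Counted by class, 13 of 53 Rabs were higher in macrophage-like cells (16.2% of all genes tested were), 13 in monocyte or dendritic-like cells (13.5%) and 13 in neutrophil-like cells (14.4%), which is 24.5% of the Rabs in each. Without macrophage-like cluster 13, an alternative chosen after seeing the data, the same 13 Rabs were called in macrophage-like cells. The remaining mesenchyme-like cells had 14 (22.7% of all genes), dental follicle-like cells 10 (19.8%) and odontoblast-like cells 7 (16.6%), which fell to 4 without Din-KO replicate 1. Glia-like cells had 10 (12.5%), ameloblast-like cells 6 (16.9%), epithelium-like cells 6 (16.3%) and endothelium-like cells 5 (16.9%). T or NK-like cells had 5 (7.77%), B-like cells 4 (13.2%) and perivascular-like cells 3 (8.53%). Outside the myeloid and glia-like classes the Rab shares, from 5.66% to 26.4%, lay near or below these backgrounds.

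Rab13, Rab23, Rab27b, Rab34, Rab36 and Rab40b were higher in all 3 mesenchyme classes. No housekeeping Rab was called higher in odontoblast-like, dental follicle-like, remaining mesenchyme-like, perivascular-like, glia-like, epithelium-like, B-like or T or NK-like cells. The macrophage-like and neutrophil-like classes called 4 of 18 each, where 16.2% and 14.4% of all genes tested were higher. B-like cells had the most Rabs called lower, 10 of 53 against 13.5% of all genes. The housekeeping list summed to between 1344 CPM in ameloblast-like and 2229 CPM in macrophage-like cells. The low sum of the ameloblast-like class stands beside 348300 CPM of ameloblast markers, and the sums were not corrected for it.

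Regulators of Rabs were spread over the classes as well, with 77 of 98 tested higher in at least 1 class (71.5% of all genes). The 108 listed were chaperones and prenylation factors, exchange factors, GTPase-activating proteins and effectors. Some that bind Rab27 or Rab3, were picked as examples after their values were seen, and not all were high where a Rab27 was. Sytl1, an effector of Rab27, was at a log2 fold change of 5.91 in ameloblast-like cells (63.5 CPM). Sytl2, another Rab27 effector, was at 6.06 in odontoblast-like cells (132 CPM). Unc13d, which primes Rab27a granules, was at 3.61 in neutrophil-like cells, and Rab3il1, an exchange factor, was at 5.22 in macrophage-like cells. Mlph, an effector of Rab27a, was at 8.63 in glia-like cells (52.5 CPM), where Rab27a had 0 UMIs, and Sytl3, another effector, was at 9.36 in T or NK-like cells (62.0 CPM).

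The comparison of Din-KO with WT asks what loss of Din changed. With genotype as the only term, no Rab gene was called changed in the mesenchyme-like cells. An alternative with a replicate block called Rab3b and is given at the end, since the labels do not say what the replicate numbers share. These 7171 cells hold the follicle, odontoblast and remaining mesenchyme classes. Their mix differed between the replicate numbers. Dental follicle-like cells were 118 of 2651 and 268 of 853 in WT replicates 1 and 2, and 137 of 3031 and 163 of 636 in Din-KO. Odontoblast-like cells were 47 and 102 in WT, and 57 and 75 in Din-KO. The part of this mix in the levels and in the distances between libraries was not tested. Of 53 Rabs tested among 15305 genes, edgeR called 0 (0% of all genes were called). DESeq2 called 0 Rabs and 21 genes in all. In edgeR 0 Rabs were at an unadjusted p under 0.05, where 162 genes were. Log2 fold changes ran from -1.11 to 0.61 with a median of -0.04, against -0.02 over all genes, and 32 of 53 were negative. For 46 of 53 Rabs the distance between the WT libraries exceeded that between the means of the genotypes on the log2(CPM + 1) scale. This was not counted over all genes. A distance between single libraries varies more than one between means, so the count says nothing particular about Rabs.

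Rab6b had the smallest p. Mesenchyme-like cells held it at 5.57 and 5.09 CPM (WT) and 3.74 and 2.39 CPM (Din-KO), a log2 fold change of -0.82 ± 0.38 (SE, adjusted p = 1.00). The groups did not overlap, with Din-KO lower. Rab38 was at 6.74 and 4.73 CPM against 5.19 and 3.75 CPM (-0.39 ± 0.37) and Rab8a at 62.2 and 53.3 CPM against 56.0 and 45.0 CPM (-0.23 ± 0.22), both at an adjusted p of 1.00, and their groups overlapped. The Rab with the lowest fold change was Rab3b, at 26.6 and 5.21 CPM (WT) and 12.5 and 2.47 CPM (Din-KO) (-1.11 ± 1.08), where the replicate 1 libraries exceeded the replicate 2 libraries in both genotypes.

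Counted by libraries that do not overlap, 0 of 53 Rabs were above WT in each Din-KO library, against 11.4% of all genes, and 5 (Rab2a, Rab42, Rab4b, Rab6b and Rab9) were below, against 6.38%. Rab2a stood at 241.4 and 232.0 CPM for WT against 206.9 and 227.6 CPM for Din-KO. Rab4b was at 58.5 and 59.0 CPM against 55.3 and 56.8 CPM. Rab9, which is X-linked, was at 50.3 and 49.9 CPM against 48.6 and 45.4 CPM. Rab42 was at 3.09 and 2.67 CPM against 2.05 and 2.47 CPM (-0.39 ± 0.38, adjusted p = 1.00).

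**Figure D4:**
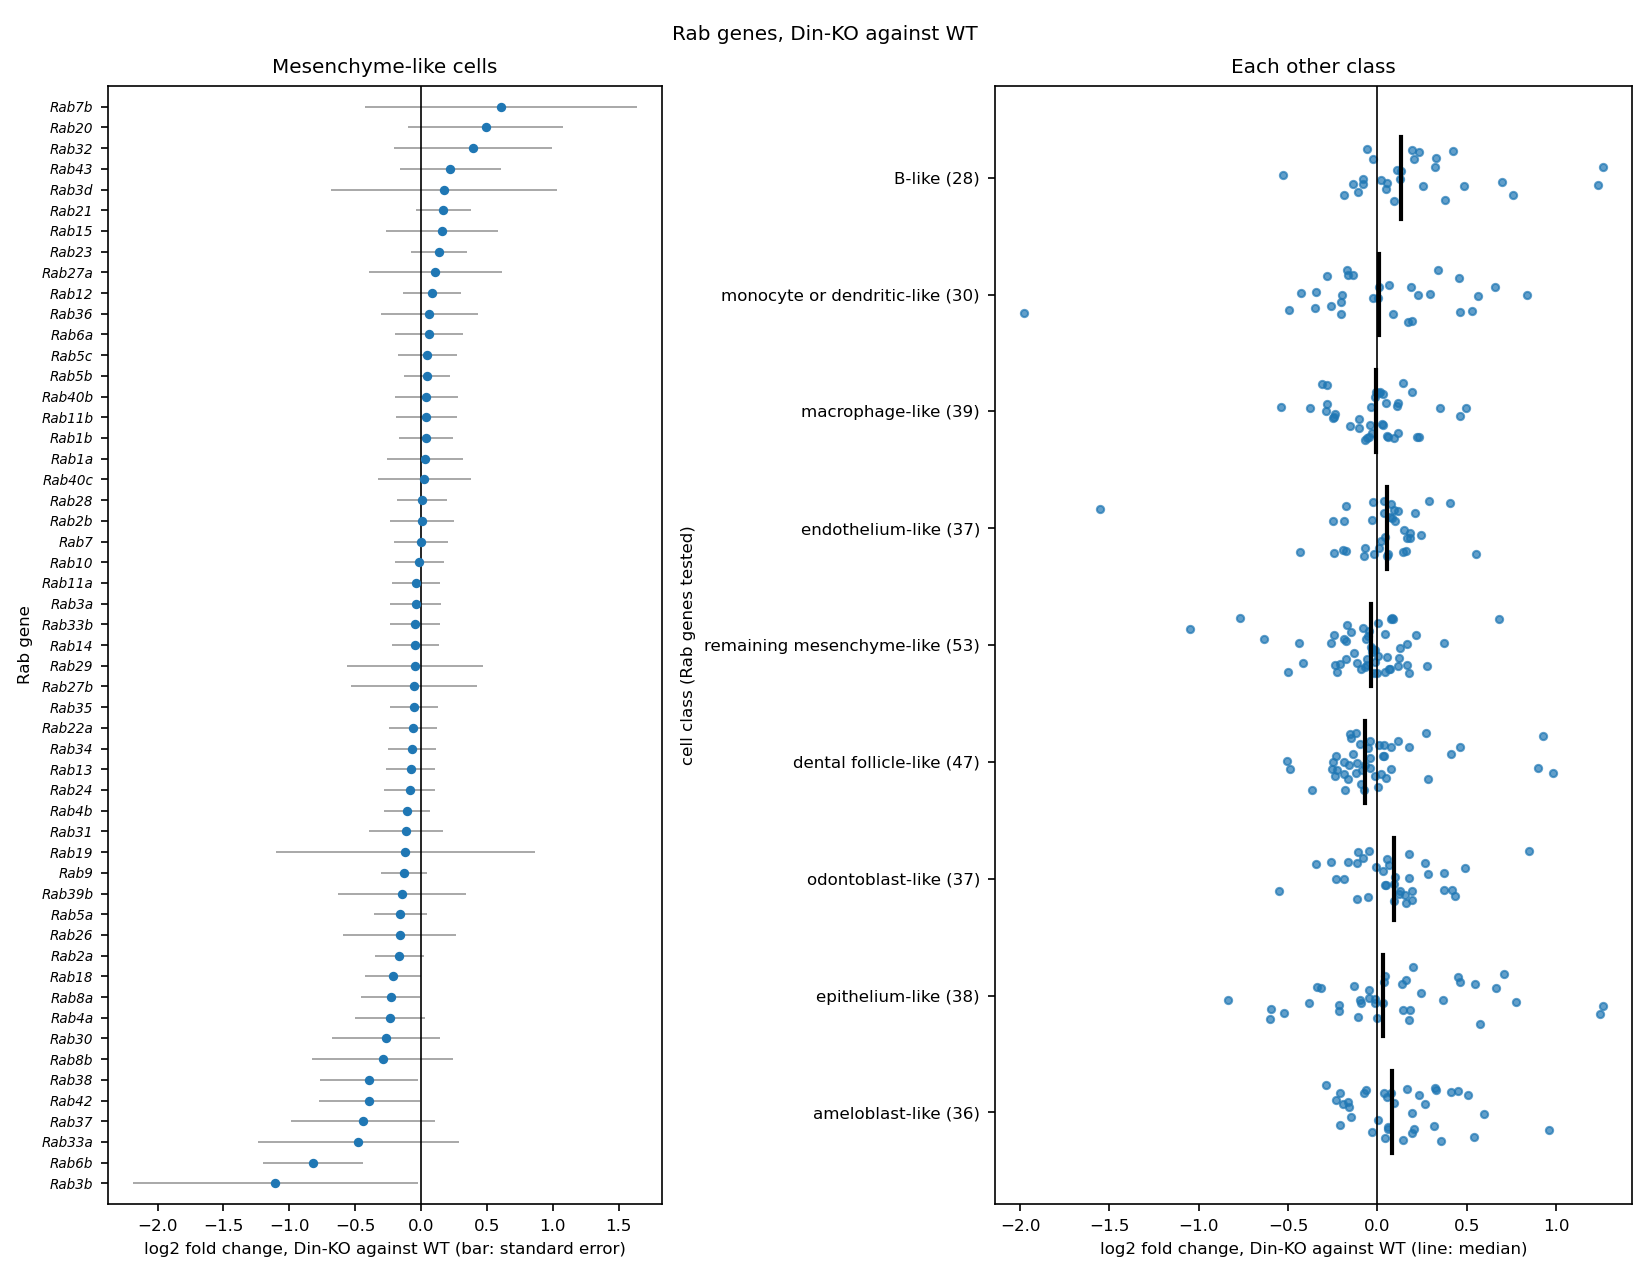
Log2 fold changes of Rab genes, Din-KO against WT. The left panel shows each of the 53 Rabs tested in mesenchyme-like cells with its SE. The right panel shows each Rab tested in 9 further classes with a line at the median. With genotype as the only term no Rab was called in either, and the left panel runs from -1.11 to 0.61.

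In the 9 classes with at least 20 cells in every library edgeR and DESeq2 called 0 Rabs with genotype as the only term. All genes called by edgeR were 0.0539% of those tested in endothelium-like cells, 0.0278% in macrophage-like cells and 0% in the other 7 classes. Over all genes DESeq2 called from 0 in epithelium-like cells to 54 in endothelium-like cells. An unadjusted p under 0.05 in edgeR was reached by 3 Rabs, 1 each in endothelium-like, monocyte or dendritic-like and B-like cells. Over all genes 331 of 11123, 297 of 5049 and 133 of 7320 reached it in these classes. Rab6b in endothelium-like cells, whose 4 values stand above, had a log2 fold change of -1.55 ± 0.45 (SE, adjusted p = 0.958), with each Din-KO library below WT. Rab44 in monocyte or dendritic-like cells had -1.98 ± 0.63 (adjusted p = 0.734) on few UMIs. Rab8b in B-like cells stood at 24.4 and 18.1 CPM (WT) and 58.4 and 39.7 CPM (Din-KO), with 1.24 ± 0.46 (adjusted p = 1.00).

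Of 37 Rabs tested in odontoblast-like cells, 10 were above WT in each Din-KO library (13.5% of all genes were) and 0 were below (6.06%). These were Rab5a, Rab5c, Rab6a, Rab7, Rab11b, Rab21, Rab22a, Rab33b, Rab40b and Rab43. Rab21 had the smallest p of this class, at 39.0 and 40.7 CPM against 58.8 and 54.3 CPM (0.43 ± 0.28, adjusted p = 1.00), and Rab40b had 0.38 ± 0.34 (adjusted p = 1.00). In ameloblast-like cells 9 of 36 were above (12.4%) and 1, Rab25, was below (7.35%). Rab8b there was at 18.4 and 20.1 CPM against 30.2 and 25.9 CPM (0.51 ± 0.34, adjusted p = 1.00).

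Epithelium-like cells had 9 of 38 Rabs above (16.9%) and 5 below (12.8%). Rab15 there had a log2 fold change of 1.26 ± 0.53, Rab38 of 1.25 ± 0.61 and Rab11b, at 67.9 and 75.9 CPM against 99.98 and 112.4 CPM, of 0.55 ± 0.26, all at an adjusted p of 1.00. Macrophage-like cells had 1 of 39 above, Rab5b (9.33%), and 6 below (16.6%). Rab5b was at 32.2 and 41.2 CPM against 42.6 and 45.5 CPM (0.35 ± 0.26, adjusted p = 1.00). The mesenchyme-like cells share their cells with 3 of the 9 classes.

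Din-KO effects on Rabs were also compared between the 9 classes by their interaction term. edgeR called 0 of 52 Rabs and 0% of 14069 genes, and DESeq2 called 0 Rabs. An unadjusted p under 0.05 was reached by 310 genes, of which 1 was a Rab, Rab8b (adjusted p = 1.00). Its log2 fold change was 1.24 ± 0.46 in B-like, 0.66 ± 0.35 in monocyte or dendritic-like and -0.55 ± 0.45 in odontoblast-like cells.

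Regulators of Rabs in mesenchyme-like cells gave the same count. Of 101 tested, edgeR and DESeq2 called 0, 0 were at an unadjusted p under 0.05, and log2 fold changes had a median of -0.03 (range -0.63 to 1.97), with 61 negative. Chaperones and prenylation factors had a median of -0.08 over 7 genes, exchange factors -0.05 over 29, GTPase-activating proteins -0.01 over 40 and effectors -0.04 over 25.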

How the data were processed

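The deposited values are raw UMI counts of each gene in each barcode, for which the authors used CellRanger 6.0.2 and the mm10/GRCm38 genome. As in the study, barcodes with under 1000 genes, over 10% mitochondrial UMIs or over 3% hemoglobin UMIs were dropped, which left 11310 of 20502. In Seurat 5.3.0 the cell cycle was regressed out, the libraries were integrated and clusters were found (resolution 1, 30 principal components, 2000 variable genes). Rab genes were taken out of the variable genes, of which 2 had been members. Of 30 clusters 29 were named from marker lists. Counts were summed per library and class and tested in edgeR 4.0.16 (R 4.3.3, TMM, filterByExpr, quasi-likelihood test, Benjamini-Hochberg over all genes tested, threshold 0.05), for class against the mean of the other classes with library as a term, for Din-KO against WT (2 libraries each), and for their interaction. The SE given with an edgeR fold change was computed as the size of the log2 fold change over the square root of its F statistic. The steps were tested on simulated data.

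Scrublet marked 0.221% of cells and so has not worked, and an alternative left out the 5% of each library with the highest scores. Free RNA was not removed. Other alternatives were DESeq2 1.42.0, other size factors, no filter, a replicate block, each library left out, at least 50 cells, a resolution of 0.5, each cell thinned to 2000 UMIs and, chosen after seeing the data, the class tests without macrophage-like cluster 13. Antisense genes overlap exons of 13 Rabs, and same-strand genes overlap those of Rab18 and Rab26.

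The genes named with full values were, per class, up to 3 Rabs with the largest fold among those called higher, per genotype comparison those called or, with none, the 3 with the smallest p, and the 4 lowest and 4 highest by tau of each list. Others are given as values by role and were chosen after their values were seen. The members and all lists were chosen with earlier results of these data known. Promoter windows came from RefSeq, and protein sequences were not used here.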

Additional observations from a re-analysis of the deposited data

Results flagged for a closer look

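Cells outside the compared classes held 3 Rabs at levels above every compared class. In erythroid-like cells Rab4a, of fast recycling, was at 56.13 CPM (62 UMIs, from WT replicate 1, the 1 library with at least 20 such cells), where the highest compared class was at 29.0 CPM. In the unnamed cluster of 209 cells, led by Mcpt4, Tpsb2, H2-Eb1 and Acp5, Rab7b was at 57.04 CPM (120 UMIs) against 40.4 CPM in the highest compared class. By library Rab7b there was at 15.7 and 11.96 CPM in WT and 75.5 and 125.0 CPM in Din-KO, with no overlap of the groups. In the same cluster Rab43 was at 71.38 CPM (164 UMIs) against 54.5 CPM, with 47.2 and 43.1 CPM in WT and 83.9 and 111.4 CPM in Din-KO. None of these values was tested between genotypes, and the cluster holds markers of several cell types. The share of all genes without overlap was not computed for this cluster. In the classes with a genotype fit, 9.33% to 19.5% of all genes were above WT in each Din-KO library.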

How the results depend on the processing

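The number of Rabs higher in at least 1 class ran from 33 (at least 50 cells per library) to 45 (no filter on low counts), against 41. By class, 1 count moved by over 1.5 times, that of odontoblast-like cells, from 7 to 4 without Din-KO replicate 1. With a replicate block 1 Rab was called for genotype in mesenchyme-like cells, Rab3b, and 1 over the other classes, Rab3b in remaining mesenchyme-like cells (-1.07, adjusted p = 0.00137), among 156 and 465 genes called. The labels do not say what the numbers share, and deviations correlated at 0.79 for same-numbered libraries. With 2 libraries per genotype the crossed value, -0.79, is fixed as the negative of this and adds nothing. Without WT replicate 1 Rab3b in those cells turned to 0.19 (range over left-out libraries -2.20 to 0.19), and Rab20 in dental follicle-like cells turned to -0.059 at a resolution of 0.5. The cause was not tested. The median tau of lineage-restricted Rabs moved to 0.81 at a resolution of 0.5, and over left-out libraries it ran from 0.81 to 0.85, and that of housekeeping Rabs from 0.41 to 0.45. With cells thinned to 2000 UMIs (11 to 26 cells left out per library) the medians were 0.83 and 0.46. Of 39 named class calls, those of Rab39 in B-like and endothelium-like cells, Rab3b in glia-like cells and Rab39b in odontoblast-like cells were lost in at least 1 alternative in which they were tested. Rab39, Rab3b and Rab39b were not tested over classes without Din-KO replicate 1. T or NK-like, glia-like, perivascular-like or neutrophil-like classes did not form in 6 alternatives. Depth left 6 Rabs untested, down to 3 UMIs in all for Rab9b.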
